A study of Mus musculus with 36 samples.

Results

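Fc receptors and scavenger receptors let microglia bind and engulf antibody-coated particles, modified lipids, fungal walls and dying cells. Transcripts of 10 such receptors were followed here: the Fc gamma receptors Fcgr1, Fcgr2b, Fcgr3 and Fcgr4, the signalling chain Fcer1g, the scavenger receptors Msr1 and Cd36, the lectins Clec7a and Mrc1, and the receptor kinase Axl. They were taken by exact symbol from the 19879 genes in the deposited tables, and each was found in all 30 tables. None was lost to low counts, although Axl stayed below 10 normalized counts in 6 of 36 libraries.

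All libraries came from BV-2, a mouse microglial line that was immortalised, so the samples are cultures of 1 line and not of separate animals. There were 12 groups of 3 libraries, made of 6 treatments read at 4 h and at 24 h. Vehicle cells received DMSO or ethanol (EtOH) at 0.2%, and the other cells received lipopolysaccharide (LPS, a bacterial cell wall component that activates microglia) at 600 ng/mL, alone or with a compound. The compounds were DMF (dimethyl fumarate) and MMF (monomethyl fumarate), both at 30 µM, and the cannabis constituent cannabidiol (CBD) at 6 µM. DMF and MMF came from stocks in DMSO and CBD from a stock in EtOH, and treated cells held vehicle at 0.2%. All groups were kept in medium with little serum, and LPS was an aqueous solution. Water is named as a further vehicle in the methods, while whether cells with LPS alone also received DMSO or EtOH was not stated in the sources used here. Against LPS alone, a compound and its solvent can therefore not be told apart. The comparisons asked what LPS did to the receptors and what each compound did to LPS-treated cells. The total was 14.1 to 26.7 M counted reads per library, with a median of 16.2 M.

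All 12 microglia and macrophage markers examined had a median normalized count of 10 or more, among them Csf1r, with 4625 to 15408 counts, and Spi1, with 2317 to 7789. The homeostatic microglial genes P2ry12 and Tmem119 were low, at 15.8 to 102 and 19.1 to 223. Of the defining markers of other cell types, Rbfox3, Nefl, Mog, Olig2, Cldn5, Cd3e and Ms4a1 never exceeded 2.41 normalized counts, whereas Mbp, also listed for oligodendrocytes, reached 658 to 1508. In bulk RNA, fewer cells of a type and less RNA per cell cannot be told apart.

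As background, Fc gamma receptors bind the constant part of IgG. The products of Fcgr1, Fcgr3 and Fcgr4 depend on the Fcer1g chain, whose tyrosine-based activation motif recruits the kinase Syk and starts engulfment, while the product of Fcgr2b carries an inhibitory motif and restrains that signal. Msr1 (scavenger receptor A) and Cd36 take up modified lipoproteins, Clec7a (dectin-1) recognises beta-glucan, Mrc1 (the mannose receptor) binds mannose-rich glycans and is a usual mark of alternatively activated macrophages, and Axl binds phosphatidylserine on dying cells through its ligand Gas6.

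Fcgr2b (ENSMUSG00000026656, chr1:170786186-170804116), Fcgr4 (ENSMUSG00000059089, chr1:170846489-170857330), Fcgr3 (ENSMUSG00000059498, chr1:170878743-170892504) and Fcer1g (ENSMUSG00000058715, chr1:171057141-171061934) lie near each other on chromosome 1 (GRCm39). Fcgr1 (ENSMUSG00000015947, chr3:96190225-96201285), Msr1 (ENSMUSG00000025044, chr8:40034726-40095714), Cd36 (ENSMUSG00000002944, chr5:17986688-18093799), Clec7a (ENSMUSG00000079293, chr6:129438554-129449742), Axl (ENSMUSG00000002602, chr7:25456698-25488130) and Mrc1 (ENSMUSG00000026712, chr2:14234203-14336868) lie elsewhere. These gene positions follow the deposited tables, and the GENCODE bounds are the same for 2 of the 10 members. Of the 50-base stretches of the Fcgr3 transcript, 11.1% also occurred in transcripts of other genes, most of them in Fcgr2b, and 13% of those of Fcgr2b did so, most often in Aldh1a2. The longest run shared by Fcgr2b and Fcgr3 was 129 bases. At 150 bases, the untrimmed read length, 0% of the stretches of Fcgr3 and 2.43% of those of Fcgr2b were shared, the latter most often with Gm64270. Reads shortened by trimming could still be assigned to either gene or to neither, and their values are uncertain to that extent. The exons of Fcgr2b also overlap those of Gm38204, an antisense RNA, over 355 bases, and whether counting used strand was not given in the sources used here.

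Fcgr1, Fcgr4 and Msr1 are shown by the sequence before their start sites because each changed with LPS or a compound and because they were the 3 of 10 members whose 250 bases upstream of the GENCODE canonical start held a gamma-activated site (GAS, TTCNNNGAA, the same on both strands). Of all 21757 protein-coding promoters of that length, 7.70% held those letters. Capitals mark the GAS in each sequence and, in Fcgr4, also an interferon-stimulated element (ISRE, here GAAA, any 2 bases and GAAA on either strand, in 3.32% of promoters). No overlap between these matches was found, and a match is a description of letters only. The search covered the full 250 bases of each member, which for some of them include exons of other transcripts of the same gene, and the printed Msr1 sequence stops before the outermost annotated exon. Positions are on GRCm39, written 5′ to 3′ along the gene, for Fcgr1 at chr3:96201339-96201588, minus strand, for Fcgr4 at chr1:170846216-170846465, plus strand, and for Msr1 at chr8:40095715-40095911, minus strand.
Fcgr1: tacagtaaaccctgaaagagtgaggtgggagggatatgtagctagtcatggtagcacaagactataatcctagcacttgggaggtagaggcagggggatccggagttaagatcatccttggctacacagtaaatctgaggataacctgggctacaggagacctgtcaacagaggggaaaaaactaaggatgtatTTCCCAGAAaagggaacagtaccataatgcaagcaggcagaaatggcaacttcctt
Fcgr4: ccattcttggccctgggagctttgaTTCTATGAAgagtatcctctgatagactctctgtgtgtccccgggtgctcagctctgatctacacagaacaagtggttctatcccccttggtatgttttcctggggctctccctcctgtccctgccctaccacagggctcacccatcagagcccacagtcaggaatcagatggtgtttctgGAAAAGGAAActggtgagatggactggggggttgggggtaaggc
Msr1: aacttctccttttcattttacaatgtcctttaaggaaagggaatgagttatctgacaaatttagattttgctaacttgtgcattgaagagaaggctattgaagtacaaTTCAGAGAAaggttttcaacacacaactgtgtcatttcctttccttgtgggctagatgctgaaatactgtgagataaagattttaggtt

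The GAS lay 56 to 48 bases before the start of Fcgr1, 225 to 217 before that of Fcgr4 and 142 to 134 before that of Msr1, and the ISRE of Fcgr4 lay 44 to 35 bases before it. The 10 windows were also searched for NF-kB (GGG, any 2 bases and TTTCC), antioxidant response (ARE, TGACNNNGC), PU.1 (GAGGAA) and AP-1 (TGANTCA) letters on both strands. PU.1 letters occurred in Fcer1g, Clec7a and Mrc1, against 22.9% of all promoters, and the NF-kB, ARE and AP-1 letters in no member, against 1.47%, 9.70% and 6.18%.

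The shared chain was more abundant than any receptor. Per kilobase of exon, the median group mean of Fcer1g was 2945 normalized counts, followed by Msr1 with 208, Fcgr2b with 177, Fcgr1 with 170.0, Fcgr4 with 168 and Fcgr3 with 128. Clec7a and Cd36 were lower, at 25.4 and 17.6, and Mrc1 and Axl lowest, at 5.26 and 1.43. From Msr1 to Fcgr3 the ranges over the 12 groups overlapped, so the order among those genes depended on the group. Exon length here covers the merged exons of all annotated transcripts, at 6344 bases for Msr1 and 1159 for Fcer1g. Their canonical transcripts have 1424 and 959 bases, so the size of the gaps and the order of the receptors also depend on the length used.

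**Figure D1:**
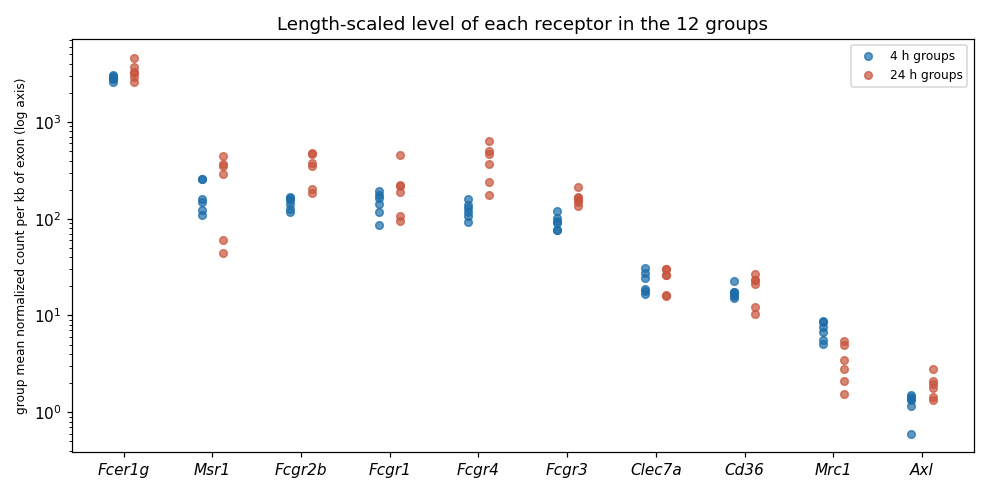
Group mean normalized count per kilobase of exon (log axis) for each receptor, 1 point per group, with 4 h groups in blue and 24 h groups in red. Fcer1g lies above all other members, with a median of 2945, and Axl lies lowest, with 1.43.

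Across the 12 groups, Msr1 varied most, by 10.1 times between its lowest group mean (DMSO, 24 h) and its highest (LPS with DMF, 24 h). Fcgr4 followed with 7.01 times, Mrc1 with 5.69, Fcgr1 with 5.35, Axl with 4.61 and Fcgr2b with 4.05, while Fcer1g varied by 1.78 times. Most groups next to each other in these orders differed by less than their spread. Of the 11 neighbouring pairs of groups, the gap exceeded the larger of the SDs in 4 pairs for Msr1 and Fcgr2b, in 3 for Fcgr1 and Fcgr4, in 2 for Fcer1g and Mrc1, in 1 for Fcgr3 and Clec7a, and in 0 for Cd36 and Axl.

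**Figure D2:**
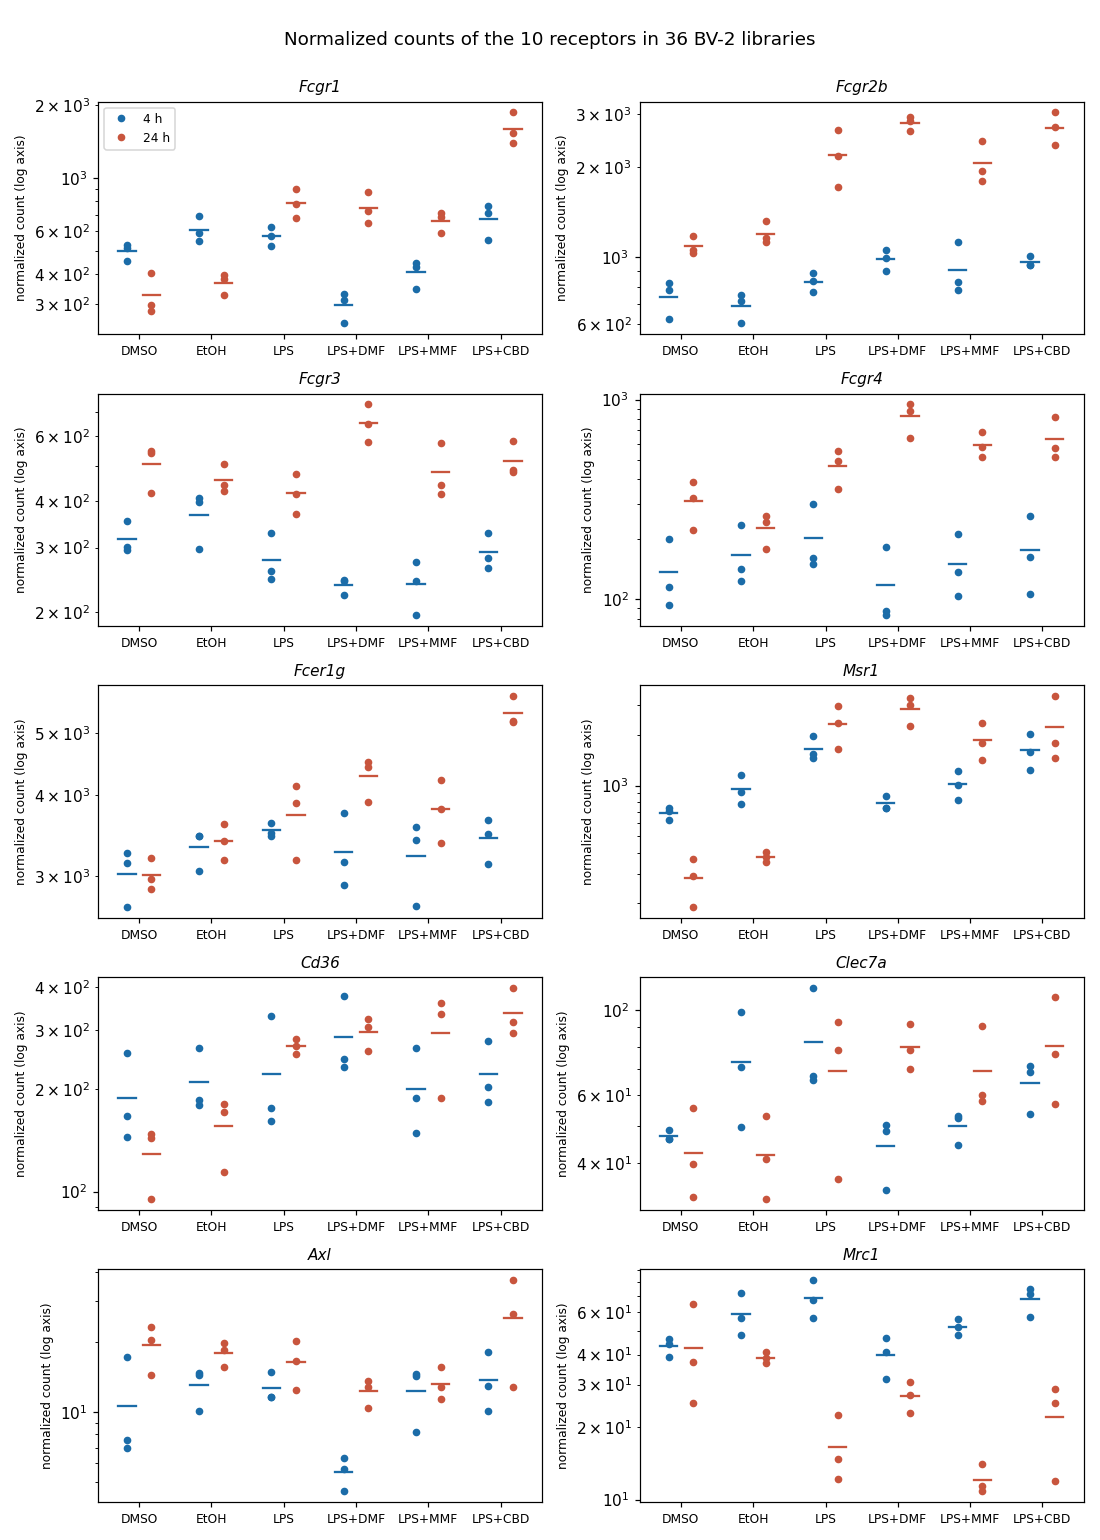
Normalized count (log axis) of each receptor in the 36 libraries, by treatment, with 4 h in blue, 24 h in red and a bar at each group mean of 3 libraries. Msr1 is high in all LPS-treated groups at 24 h, Fcgr1 is highest with CBD at 24 h, and Mrc1 is lowest in LPS-treated cells at 24 h.

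At 4 h, LPS raised Msr1 and left the other members without a call. Msr1 had 625, 739.6 and 703 normalized counts in the 3 DMSO libraries, 776, 1153 and 922 in EtOH and 1449.5, 1956 and 1546 in LPS. Every LPS library lay above every vehicle library. The log2 fold change was 1.24 (SE 0.123, adjusted p 0.000483) against DMSO and 0.80 (SE 0.159, adjusted p 0.017) against EtOH (limma, Benjamini-Hochberg adjustment over all genes). Thus 1 of 10 members was called in each comparison, where 14.1% and 10.2% of all genes tested were, 7.70% and 5.69% as higher. The call against EtOH was lost without LPS replicate 3 (adjusted p 0.0538), EtOH replicate 4 (0.061) or EtOH replicate 6 (0.0723).

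At 24 h Msr1, Fcgr1, Fcgr2b and Cd36 were higher and Mrc1 was lower with LPS than with either vehicle. Against DMSO, 5 members were higher and 1 lower, and against EtOH likewise 5 and 1. Of all genes tested, 22.7% were called against DMSO (12.1% higher and 10.6% lower) and 20.5% against EtOH (10.8% and 9.72%). The libraries of LPS and vehicle did not overlap in 5 and 6 members, and in 39.9% and 37.6% of all genes. Of the 10 members, 4 were not called in each comparison. The median log2 fold change of the members was 0.62 against DMSO and 0.73 against EtOH, beside 0.01 over all genes in each. The summed microglia and macrophage markers moved in the same direction, from 28858 to 36609 counts in DMSO and 31610 to 35588 in EtOH to 36633 to 49485 in LPS, and their part in the result was not tested.

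Among the scavenger receptors, Msr1 had 189.7, 292 and 365 counts in DMSO and 350.3, 406 and 378 in EtOH at 24 h, and 1655, 2949 and 2342 in LPS. The groups were far apart, and no vehicle library came near the lowest LPS library. Msr1 rose by 8.32 times against DMSO, or 3.06 (SE 0.234, adjusted p 7.74e-06) on the log2 scale, and by 2.58 (SE 0.167, adjusted p 1.93e-06) on the log2 scale against EtOH. Cd36, which imports oxidised lipids and fatty acids, had 144, 94.9 and 148 counts in DMSO, 172, 114 and 181 in EtOH and 281, 268 and 255 in LPS. All LPS libraries lay above all vehicle libraries. Its log2 fold change was 1.09 (SE 0.166, adjusted p 0.000834) against DMSO and 0.82 (SE 0.168, adjusted p 0.0051) against EtOH.

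Of the activating receptors, Fcgr1, the high-affinity IgG receptor, had 297, 406 and 282 counts in DMSO, 397, 382 and 327 in EtOH and 683, 896 and 781 in LPS. Its LPS libraries did not overlap those of either vehicle, and the log2 fold changes were 1.28 (SE 0.147, adjusted p 0.000132) and 1.10 (SE 0.118, adjusted p 7.19e-05). Fcgr4, which binds IgG2 antibodies, had 222, 321 and 388 in DMSO, 178, 261 and 243 in EtOH and 355, 549.8 and 493 in LPS. One DMSO library overlapped the LPS range, and EtOH did not. Fcgr4 was called against EtOH, with 1.04 (SE 0.180, adjusted p 0.00176), and not against DMSO, with 0.61 (SE 0.203, adjusted p 0.0505), where edgeR and DESeq2 on the recovered reads gave 0.0449 and 0.0137. Fcgr3, the low-affinity activating receptor, was not called against DMSO, at -0.24 (adjusted p 0.205), or EtOH, at -0.12 (adjusted p 0.534).

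The inhibitory receptor Fcgr2b was higher with LPS against both vehicles. It had 1059, 1181 and 1032 counts in DMSO, 1122, 1319.7 and 1158 in EtOH and 1716, 2660.2 and 2173 in LPS. The lowest LPS library lay above every vehicle library. The log2 fold changes were 0.99 (SE 0.134, adjusted p 0.000376) and 0.85 (SE 0.136, adjusted p 0.00103). For the chain Fcer1g, the DMSO libraries at 2862, 3195 and 2967 and the LPS libraries at 3178, 4133 and 3892 overlapped. Its change against DMSO was small, 0.32 (SE 0.0978, adjusted p 0.0374), and the call was lost without LPS replicate 2 or 3 or any 1 of the DMSO libraries (adjusted p 0.0556 to 0.14). Against EtOH it was 0.14 (adjusted p 0.369).

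Mrc1 went the other way at low counts. It had 25.3, 37.3 and 65.0 counts in DMSO, 40.8, 36.9 and 38.9 in EtOH and 12.1, 22.5 and 14.8 in LPS. No LPS library reached a vehicle library. It fell by 1.24 on the log2 scale against DMSO (SE 0.363, adjusted p 0.0303) and by 1.23 against EtOH (SE 0.285, adjusted p 0.0102). The call against DMSO was lost without LPS replicate 1 or 3 or DMSO replicate 5 or 6 (adjusted p 0.0775 to 0.139). Clec7a, at 0.63 (adjusted p 0.2) and 0.64 (adjusted p 0.197), and Axl, at -0.21 (adjusted p 0.684) and -0.13 (adjusted p 0.806), were not called. Without LPS replicate 1, whose Clec7a count of 36.4 was the lowest of its group, Clec7a was called against both (adjusted p 0.0152 and 0.0143).

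**Figure D3:**
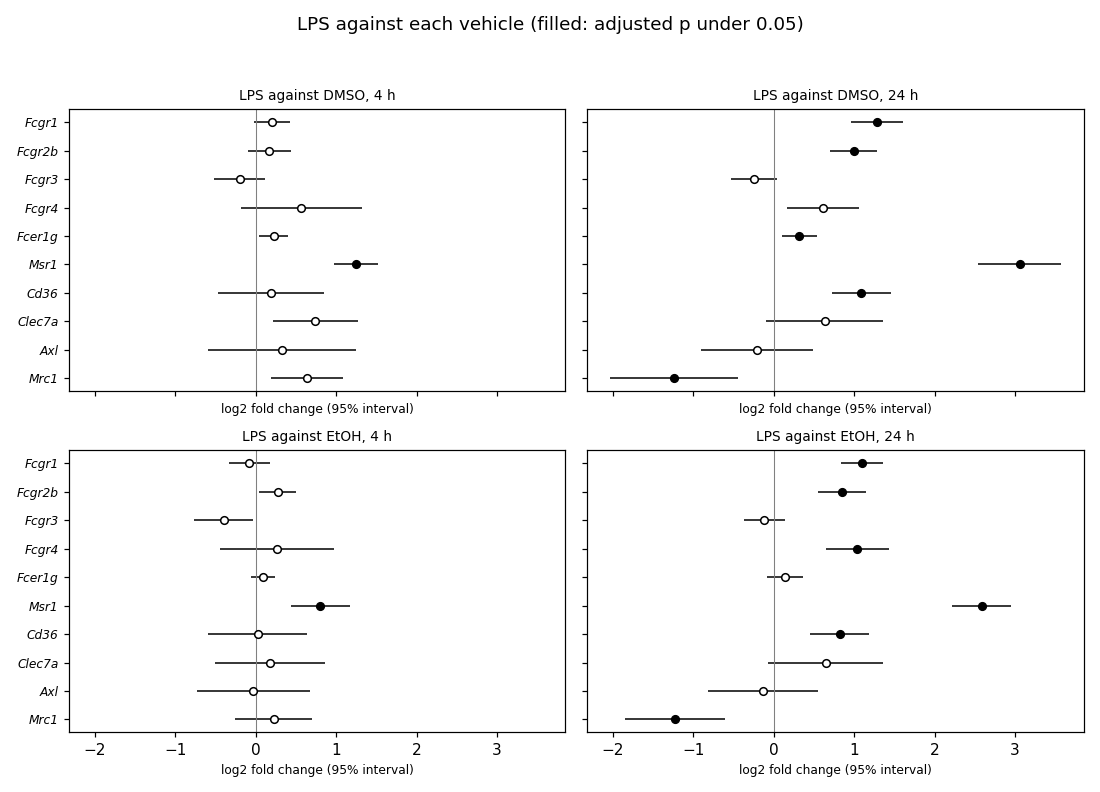
Log2 fold change of LPS over each vehicle (limma, with 95% interval) for the 10 receptors at 4 h and 24 h, filled where the adjusted p was under 0.05. Msr1 is the only filled point at 4 h, and at 24 h Msr1 reaches 3.06 against DMSO while Mrc1 lies at -1.24.

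The effect of LPS relative to vehicle differed between the times, and vehicle cells had a part in this, since Msr1 and Fcgr1 fell in them (given below). The log2 effect at 24 h minus that at 4 h was 1.79 (SE 0.309, adjusted p 0.00357) for Msr1, 1.06 (SE 0.193, adjusted p 0.00468) for Fcgr1 and -1.90 (SE 0.438, adjusted p 0.016) for Mrc1 against DMSO, and 1.77 (adjusted p 0.00117), 1.17 (adjusted p 0.00116) and -1.45 (adjusted p 0.0168) against EtOH. Fcgr2b was called against DMSO, at 0.81 (adjusted p 0.02), and not against EtOH, at 0.57 (adjusted p 0.0738). In all, 4 and 3 of 10 members were called, beside 9.46% and 9% of genes.

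DMF at 4 h lowered the receptor that LPS had raised. With LPS and DMF, Msr1 had 739.6, 871 and 740.1 counts against 1449.5, 1956 and 1546 with LPS alone. The DMF libraries lay below every LPS library and within the span of the vehicle libraries. Msr1 fell by 1.07 on the log2 scale (SE 0.13, adjusted p 0.0012). Fcgr1 had 313, 250.2 and 332 counts with DMF against 525, 627 and 575 with LPS. Its DMF libraries lay below all vehicle libraries of the same time as well. It fell by 0.96 (SE 0.131, adjusted p 0.00207). These were 2 of 10 members, beside 11.1% of all genes called and 6.51% called lower, and the median over the members was -0.79, beside 0.01 over all genes. The libraries did not overlap in 7 members and 30.1% of genes.

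Same-numbered libraries of DMF and LPS deviated together, and with the replicate number as a block 5 members were lower (9.09% of all genes). The block added Fcgr4, at -0.81 (adjusted p 0.0051), Clec7a, at -0.86 (adjusted p 0.0277), and Mrc1, at -0.78 (adjusted p 0.0345). For Fcgr4 the counts were 87.3, 182 and 83.1 with DMF and 149.7, 298 and 160.1 with LPS, and replicate 2 was the highest of both groups. The log2 ratios of same-numbered libraries were close to each other, at -0.77, -0.71 and -0.94. Axl, at 5.67, 4.55 and 6.31 against 11.6, 11.6 and 14.8, was too low for a firm statement, with -1.07 (adjusted p 0.107). The summed microglia and macrophage markers were also lower with DMF, at 27072 to 32962 against 37319 to 44057 with LPS (0 of 12 called higher and 4 lower), and their part in these falls was not tested.

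At 24 h the activating receptors Fcgr4 and Fcgr3 were higher with DMF than with LPS alone, while Fcgr1 was not called, at -0.07 (adjusted p 0.719). Fcgr4 had 639, 949 and 881 counts with DMF against 355, 549.8 and 493 with LPS, and Fcgr3 had 579, 734 and 648 against 371, 474 and 418. For both genes every DMF library exceeded every LPS library. Fcgr4 rose by 0.82 (SE 0.173, adjusted p 0.00752) and Fcgr3 by 0.63 (SE 0.115, adjusted p 0.00373) on the log2 scale, so 2 of 10 members were called, beside 25.1% of genes called and 11.9% called higher. The libraries did not overlap in 4 members and 42.4% of genes. In the fit of all 36 libraries together the adjusted p of Fcgr4 was 0.0686. Without LPS replicate 2, 5 members were called, with Fcgr2b, Msr1 and Mrc1 in addition. With the block, 5 members were higher (18.3% of all genes), with the addition of Fcgr2b, at 0.38 (adjusted p 0.00575), Msr1, at 0.32 (adjusted p 0.00283), and Fcer1g, at 0.20 (adjusted p 0.0149).

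The change of the DMF effect with time was tested directly. The effect at 24 h exceeded that at 4 h by 1.63 (SE 0.422, adjusted p 0.0169) for Fcgr4, 1.49 (SE 0.368, adjusted p 0.0133) for Mrc1 and 1.39 (SE 0.260, adjusted p 0.00255) for Msr1 on the log2 scale. Fcgr1, with 0.88 (adjusted p 0.00694), and Fcgr3, with 0.85 (adjusted p 0.00669), were called as well. These 5 of 10 members stood beside 16.3% of genes. For Mrc1, limma without the block called neither the 4 h nor the 24 h effect on its own. Its counts at 24 h were low, at 12.1 to 22.5 with LPS and 23.0 to 30.8 with DMF.

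MMF, the compound left when a methyl ester group of DMF is removed, was given at the same dose as DMF. At 4 h, Msr1 had 817, 1217 and 1012 counts with MMF and Fcgr1 had 349, 444 and 428. For both genes all 3 MMF libraries lay below all 3 LPS libraries, and the libraries were apart in 4 members and 13.5% of genes. Neither was called, at -0.70 (adjusted p 0.304) for Msr1 and -0.50 (adjusted p 0.375) for Fcgr1 by limma, and 0.122% of all genes were. Of the members, 0 were called by limma or edgeR and 1, Msr1, by DESeq2 (adjusted p 0.00363), while 3 had an unadjusted p under 0.05. At 24 h limma called 0 members and 0% of genes, edgeR and DESeq2 0 members, and 1 member had an unadjusted p under 0.05.

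At 24 h same-numbered MMF and LPS libraries deviated together, and the block brought out a pair of members, where 1.78% of genes were called. Msr1 was lower, at -0.31 (adjusted p 0.000667), with same-numbered log2 ratios of -0.23, -0.32 and -0.39. Fcgr4 was higher, at 0.36 (adjusted p 0.0112), with ratios of 0.53, 0.32 and 0.23. All 3 ratios had the same sign for each gene. No interaction with time was called for MMF, in 0 of 10 members by limma, edgeR and DESeq2 (0 with an unadjusted p under 0.05), beside 0% of genes.

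Compared directly at matched dose and time, DMF and MMF differed at 24 h. Of the 10 members, 4 were higher with DMF, beside 21.5% of genes called and 10.1% called higher. The libraries did not overlap in 3 members and 39.3% of genes. Mrc1 had 23.0, 27.2 and 30.8 counts with DMF and 11.4, 10.8 and 14.02 with MMF, Fcgr2b had 2641, 2839.7 and 2919.6 and 1795, 2435 and 1939.6, and Msr1 had 2264, 3299 and 3002 and 1414, 2357 and 1789. The groups were apart for Mrc1 and Fcgr2b and overlapped for Msr1. The log2 differences were 1.10 (SE 0.262, adjusted p 0.0176) for Mrc1, 0.63 (SE 0.178, adjusted p 0.0324) for Msr1, 0.45 (SE 0.102, adjusted p 0.0137) for Fcgr2b and 0.45 (SE 0.129, adjusted p 0.0341) for Fcgr3.

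Each of these calls was lost without some single library, with adjusted p of 0.05004 to 0.0892 for Mrc1, 0.0912 to 0.123 for Msr1, 0.0586 to 0.0718 for Fcgr2b and 0.107 to 0.127 for Fcgr3. The libraries concerned were DMF replicates 2 and 3 and MMF replicates 1 and 3, and the count of members was 0 without DMF replicate 3 and 1 without any of the other libraries named. In the fit of all 36 libraries the adjusted p of Msr1 was 0.0686. With the block, which same-numbered libraries supported, 6 members were higher with DMF (18.5% of genes), with Fcgr4, at 0.46 (adjusted p 0.000235), and Fcer1g, at 0.17 (adjusted p 0.0108), in addition.

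At 4 h the difference between DMF and MMF was called in 0 of 9 members tested by limma, edgeR and DESeq2, beside 8.34% of genes, and 2 had an unadjusted p under 0.05. Axl was too low to be tested. The 95% interval of the log2 difference was -0.78 to -0.13 for Fcgr1 and -0.69 to -0.04 for Msr1, both unadjusted and both below 0. For Fcgr3 it was -0.33 to 0.33 and for Fcer1g -0.26 to 0.29.

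No receptor was called with CBD at 4 h. limma, edgeR and DESeq2 called 0 of 10 members, beside 0.00875% of genes, and 1 member, Fcgr2b, had an unadjusted p under 0.05. At 24 h CBD gave the highest Fcgr1 of the series, with 1391, 1866 and 1532 counts against 683, 896 and 781 with LPS alone. Every CBD library exceeded every library of the other groups. Fcgr1 rose by 2.03 times, or 1.02 (SE 0.128, adjusted p 0.000203) on the log2 scale, and same-numbered ratios were nearly equal, at 1.03, 1.06 and 0.97.

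Its partner chain moved with it. Fcer1g had 5186, 5699 and 5205 counts with CBD against 3178, 4133 and 3892 with LPS. The CBD libraries again lay above all other libraries of the series. Fcer1g rose by 0.53 (SE 0.101, adjusted p 0.00208) on the log2 scale. These were 2 of 10 members, whereas 48.7% of all genes were called, 23.9% as higher. The libraries did not overlap in 4 members and 58.7% of genes. Without LPS replicate 2, 5 members were called, with Fcgr2b, Fcgr3 and Fcgr4 in addition. With the block, supported by the numbers, 6 members were higher (27.5% of genes), with Fcgr4, at 0.45 (adjusted p 0.00576), Fcgr2b, at 0.33 (adjusted p 0.0111), Cd36, at 0.32 (adjusted p 0.0266), and Fcgr3, at 0.30 (adjusted p 0.0414), in addition.

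Msr1 showed no such rise with CBD. It had 1796, 3396 and 1465 counts, which overlapped those with LPS alone, and the log2 fold change was -0.11 (adjusted p 0.765) with a 95% interval of -0.76 to 0.53. The effect of CBD at 24 h exceeded that at 4 h by 0.79 (SE 0.197, adjusted p 0.00782) for Fcgr1 and 0.57 (SE 0.133, adjusted p 0.00499) for Fcer1g, which were 2 of 10 members beside 32.0% of genes. Other measures also moved with CBD at 24 h, and their part in these results was not tested. The summed microglia and macrophage markers overlapped between CBD (36116 to 48324) and LPS (36633 to 49485), with 2 of 12 called higher and 4 lower. The endothelial list summed to 74.3 to 97.0 with CBD against 140.1 to 184 with LPS, and the oligodendrocyte list to 986 to 1338 against 1445 to 1819, while the lymphocyte list was higher, at 34.8 to 40.01 against 13.9 to 24.1. Of these lists, Cldn5, Mog, Olig2, Cd3e and Ms4a1 stayed at or below 2.41 counts in every library. Other listed genes were detected, with Pecam1 at 42.6 to 138 counts over the series, Mbp at 658 to 1508 and Cd2 at 5.16 to 31.5. With CBD, 0 of 2 endothelial genes tested were called higher and 1 lower. Of 4 oligodendrocyte genes 1 was higher and 1 lower, and of 2 lymphocyte genes 1 was higher and 0 lower, beside 48.7% of all genes called. The mitochondrial share of reads was 1.25% to 1.396% in the 3 CBD libraries, the lowest of the 36, against 1.44% to 2.32% with LPS.

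**Figure D4:**
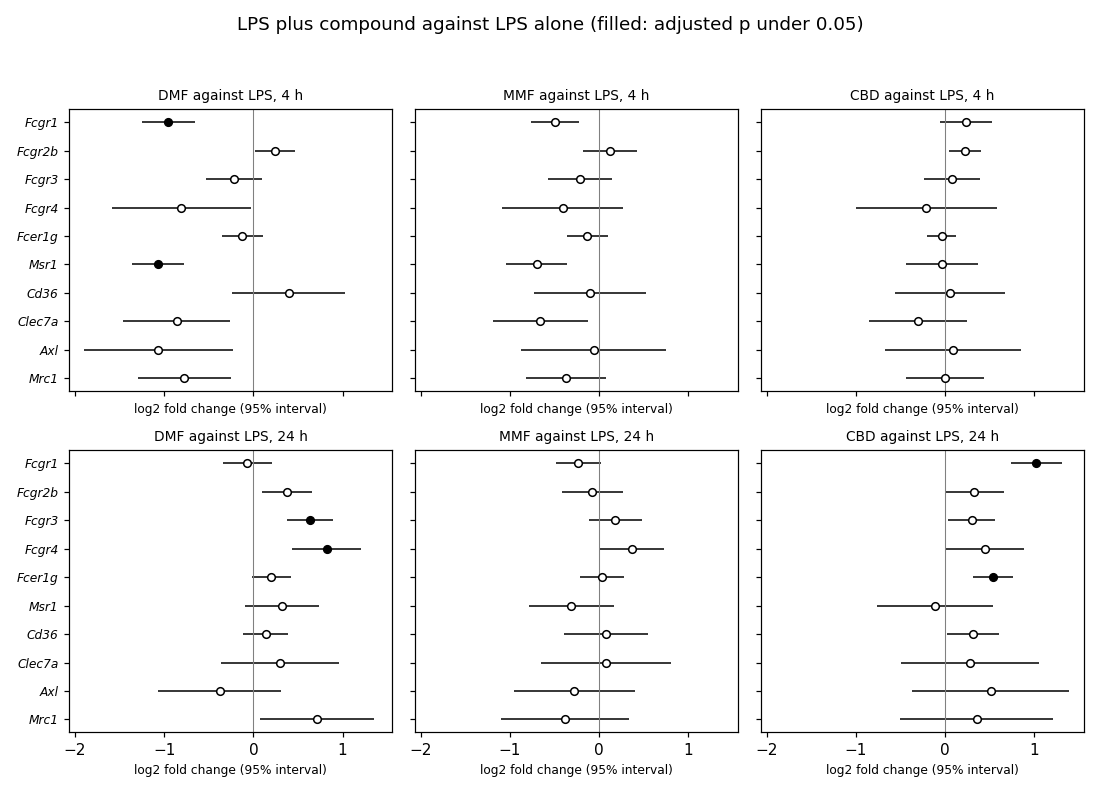
Log2 fold change of LPS with each compound over LPS alone (limma, with 95% interval) for the 10 receptors at 4 h and 24 h, filled where the adjusted p was under 0.05. With DMF, Fcgr1 and Msr1 are filled below 0 at 4 h and Fcgr3 and Fcgr4 above 0 at 24 h, and with CBD Fcgr1 and Fcer1g are filled above 0 at 24 h.

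**Figure D5:**
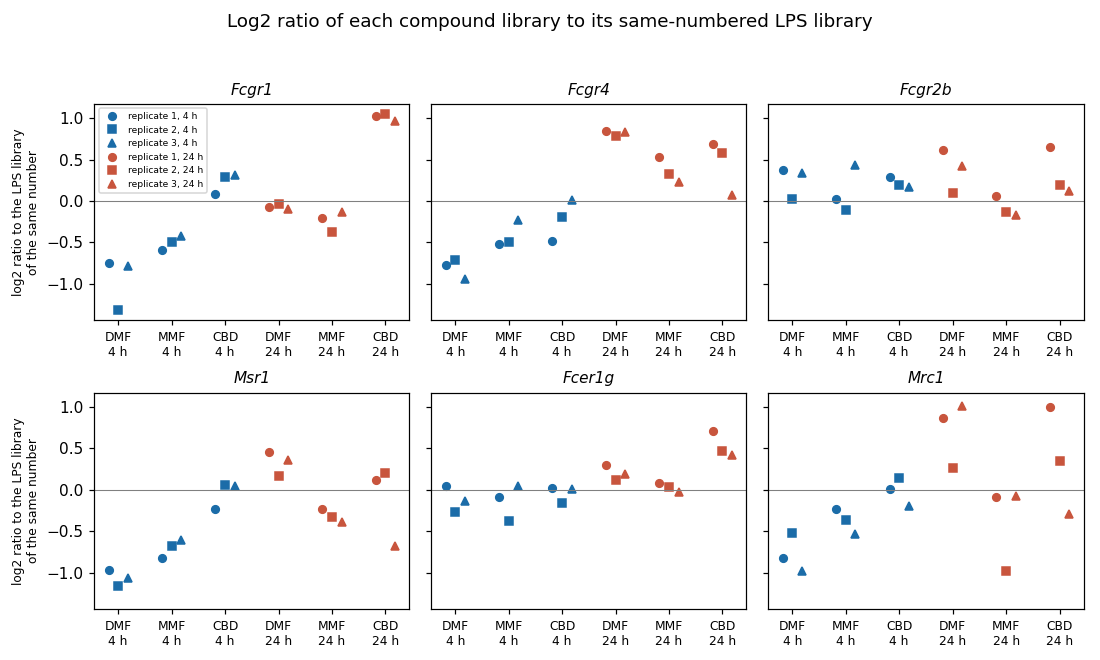
Log2 ratio of each compound library to the LPS library of the same number, for 6 receptors, with the replicate number as symbol, 4 h in blue and 24 h in red. The Fcgr4 ratios with DMF lie between -0.94 and -0.71 at 4 h and between 0.79 and 0.85 at 24 h.

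The vehicles served as background. DMSO against EtOH called 0 of 10 members at 4 h and at 24 h by limma, edgeR and DESeq2, beside 0% and 0.00854% of genes, with 3 and 2 members at an unadjusted p under 0.05. At 4 h same-numbered vehicle libraries deviated together, and the block gave 3 members lower in DMSO (3.81% of genes). These were Msr1, at -0.44 (adjusted p 0.00131), Fcgr1, at -0.28 (adjusted p 0.041), and Fcer1g, at -0.13 (adjusted p 0.0437). The LPS effects above are given against each vehicle.

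Receptor levels changed with culture time, and differently with and without LPS. Fcgr2b was higher at 24 h than at 4 h in all 6 treatments, by 1.45 times in DMSO to 2.83 times in LPS with DMF. Msr1 and Fcgr1 fell in both vehicles. Msr1 dropped by 1.36 in DMSO and 1.33 in EtOH, and Fcgr1 by 0.64 and 0.74. In LPS-treated groups Fcgr1 rose instead, by 0.44 with LPS alone, 0.71 with MMF, 1.23 with CBD and 1.32 with DMF. With LPS alone Msr1 changed by 0.45 over time, which limma did not call. It was called by edgeR (adjusted p 0.0479), DESeq2 (0.0189) and limma with the replicate block (0.00344). This rise was smaller than the fall of Msr1 in either vehicle, and both went with its larger LPS effect at 24 h.

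The largest rise with time was that of Fcgr4 in LPS with DMF, 2.87 (SE 0.270, adjusted p 1.63e-05), and the steepest falls were those of Mrc1 in LPS with MMF, -2.04 (SE 0.258, adjusted p 0.000118), and in LPS alone, -2.03 (SE 0.274, adjusted p 0.000366). In DMSO Mrc1 was not called, at -0.15 (adjusted p 0.71). In EtOH it was called lower, at -0.59, and that call was lost in limma without the filter on low values (adjusted p 0.0681). Called members numbered 5 each in DMSO, EtOH and LPS alone, 8 when DMF was added, 6 for MMF and 7 for CBD, where 51.6%, 58.6%, 48.9%, 58.8%, 49.5% and 63.2% of genes were called in that order of treatments. Time and any handling that differed between the harvests cannot be told apart. At 4 h Cd36 was highest in replicate 1 of each LPS-treated group and in replicate 4 of each vehicle group, at 255.8 to 377 counts against 145 to 246 in the other libraries.

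Genes with the most similar course over the 12 group means, by Pearson's r on the log2 scale among genes reaching 50 counts in a group, are given as a description only. Fcgr1 was nearest to Sp110 (r 0.966), a nuclear body protein induced by interferon, and to Cd33 (0.946), a sialic acid-binding lectin. Fcgr2b was nearest to Tspo (0.988), the mitochondrial translocator protein imaged in activated microglia, and Acadsb (0.984). Msr1 was nearest to Pstpip2 (0.956) and Pilrb2 (0.951), Fcgr4 to Ehbp1l1 (0.986) and Aldh3b1 (0.972), Fcgr3 to Dennd1b (0.983) and Tnfaip8l2 (0.966), Cd36 to Slc25a38 (0.948) and Pigl (0.938), and Mrc1 to Rad52 (0.935) and Armc5 (0.931). The other members did not vary enough or were too low for this.

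Genes downstream of the receptors were examined as a list of 20 kinases, adaptors and phosphatases of activation-motif signalling. With LPS at 24 h against DMSO, 12 of 20 tested were higher and 0 lower (median log2 fold change 0.30), beside 12.1% higher and 10.6% lower over all genes. Among them, the phosphatase Ptpn6 (SHP-1) rose by 1.05 (adjusted p 0.000299). With DMF at 4 h, 0 of 20 tested were higher and 10 lower (median log2 fold change -0.31), beside 11.1% of all genes called and 6.51% called lower. The lower sum of microglia and macrophage markers given above was measured in the same libraries. The Src-family kinase Fgr was among those that fell, at -1.12 (adjusted p 0.0129). With CBD at 24 h, 4 of 20 tested were higher and 7 lower (median log2 fold change -0.21), a share near the 48.7% of all genes called there. There the adaptor Blnk, at 0.99 (adjusted p 1.92e-05), and the kinase Syk, at 0.52 (adjusted p 0.0102), rose, while Fgr, at -1.27 (adjusted p 0.00561), and Ptpn6, at -1.26 (adjusted p 0.00055), fell.

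Lectins related to Clec7a and Mrc1 were also followed. Of 15 listed, at 24 h against DMSO, 8 of 12 tested were higher and 1 lower (median log2 fold change 0.87), beside 12.1% higher and 10.6% lower over all genes. The rises included Clec4a1, at 2.73 (adjusted p 0.000478), and Clec4n (dectin-2), at 2.08 (adjusted p 0.0032). At 4 h Clec4e (Mincle), a receptor for mycobacterial glycolipid, rose by 2.09 (adjusted p 3.66e-05) against DMSO. With CBD at 24 h, 2 of 11 tested were higher and 2 lower (median log2 fold change -0.27), beside 48.7% of all genes called. Clec4e, at 1.12 (adjusted p 0.000992), and Clec4a3, at 0.98 (adjusted p 0.00881), rose, and Clec4a2, at -1.31 (adjusted p 0.00982), and Clec5a, at -0.53 (adjusted p 0.00615), fell. Whether the lists differed from the members was not tested.

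Other scavenger receptors went in both directions. Of 16 listed, at 24 h with LPS against DMSO, 2 of 10 tested were higher and 2 lower (median log2 fold change -0.08), beside 12.1% higher and 10.6% lower over all genes. Stab1 rose by 0.85 (adjusted p 6.91e-05), while Colec12, at -0.45 (adjusted p 0.0106), and Scarb2, at -0.45 (adjusted p 0.00362), were lower. Scarb1, the receptor for high-density lipoprotein, fell with DMF at 24 h, at -0.92 (adjusted p 9.78e-05), and with CBD, at -1.23 (adjusted p 0.000151). Cd68, a lysosomal glycoprotein that also stands among the macrophage markers, rose with CBD by 1.12 (adjusted p 0.000122).

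Among genes of apoptotic cell uptake, to which Axl belongs, at 24 h with LPS against DMSO, 1 of 11 tested were higher and 5 lower (median log2 fold change -0.25), beside 12.1% higher and 10.6% lower over all genes. The lipid exporter Abca1 moved in opposite directions with the compounds, at 1.34 (adjusted p 4.85e-05) with DMF and -2.08 (adjusted p 9.76e-05) with CBD, both against the same LPS libraries. Among 9 relatives that bind the Fc part, of which 6 were in the tables, at 24 h with LPS against DMSO, 1 of 4 tested were higher and 0 lower (median log2 fold change 0.34), a share near the 22.7% of all genes called. At 4 h Trim21, an intracellular antibody receptor, rose by 1.68 (adjusted p 0.000918) with LPS and was lower with DMF, at -1.58 (adjusted p 0.00404).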

How the data were processed

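BV-2 RNA was sequenced in 36 libraries. Per the submitters' notes and methods, reads were trimmed (cutadapt 4.4, Trimmomatic 0.39), aligned with HISAT2 2.2.1 to GRCm39, counted per Ensembl gene with HTSeq 2.0.3 and compared with DESeq2 1.40.2. The authors deposited 30 pairwise tables whose library columns hold a normalized signal, the read count over that library's DESeq2 size factor. Other columns give the authors' fold changes, standard errors, test statistics and p-values, which were not used. The values could be turned back into whole reads for 155 of 180 library columns, where 100% of values lay within 0.01 of a whole read.

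Each pair was tested with limma 3.58.1 (R 4.3.3, eBayes with trend) on log2(normalized count + 1) in its 6 libraries, for genes with 10 or more in at least 3 libraries. Fold changes are on that scale, which understates changes of low genes. Calls had a Benjamini-Hochberg adjusted p under 0.05 over all genes. Levels, and the tests of a change of effect between times (12 libraries), used recovered reads divided by median-of-ratios factors over all 36 libraries, so that library values differ slightly in scale from those behind a fold change. SE is the moderated standard error of a log2 fold change from limma, and SD is taken over the 3 libraries of a group. Groups came from the labels. The methods state that experiments were repeated 3 times, with 1 line, and p-values measure the spread between these samples. LPS-treated libraries are numbered 1 to 3 and vehicle libraries 4 to 6. LPS and anything that went with these numbers can therefore not be told apart.

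The members and the gene lists were chosen with earlier results of these data known. Named genes were all members, up to 2 rises and 2 falls per list and comparison with a mean of 50 or more, and the 2 genes nearest in pattern. Some genes that this rule names are not reported here. A number was taken to pair libraries where each of the 3 correlations of same-numbered deviations exceeded 0.1. That held for DMF, MMF and CBD against LPS and DMF against MMF at 24 h (0.127 to 0.677), for DMF and CBD against LPS at 4 h, for DMSO against EtOH at both times, and for LPS and LPS with MMF over time. Alternatives were edgeR 4.0.16, DESeq2 1.42.0, pseudocounts of 0.5 and 5, no filter, joint factors, all libraries in 1 fit, the replicate block and leaving out each library. The tests of pairs and of the change between times by limma, edgeR and DESeq2 were run on simulated data first. The replicate block and the fit of all libraries were not.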

Additional observations from a re-analysis of the deposited data

Results flagged for a closer look

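For 14 results the effect of a treatment differed between 4 h and 24 h by a test of the difference itself (limma interaction term, Benjamini-Hochberg adjustment over all genes). The values are the log2 effect at 24 h minus that at 4 h. For LPS against DMSO these were Msr1 at 1.79 (SE 0.309, adjusted p 0.00357), Fcgr1 at 1.06 (SE 0.193, adjusted p 0.00468), Fcgr2b at 0.81 (SE 0.195, adjusted p 0.02) and Mrc1 at -1.90 (SE 0.438, adjusted p 0.016). For LPS against EtOH they were Msr1 at 1.77 (SE 0.259, adjusted p 0.00117), Fcgr1 at 1.17 (SE 0.170, adjusted p 0.00116) and Mrc1 at -1.45 (SE 0.342, adjusted p 0.0168). Both contrasts share the LPS libraries.

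For DMF against LPS they were Fcgr4 at 1.63 (SE 0.422, adjusted p 0.0169), Mrc1 at 1.49 (SE 0.368, adjusted p 0.0133), Msr1 at 1.39 (SE 0.260, adjusted p 0.00255), Fcgr1 at 0.88 (SE 0.195, adjusted p 0.00694) and Fcgr3 at 0.85 (SE 0.187, adjusted p 0.00669). For CBD against LPS they were Fcgr1 at 0.79 (SE 0.197, adjusted p 0.00782) and Fcer1g at 0.57 (SE 0.133, adjusted p 0.00499). The Fcgr2b value against DMSO was not called without DMSO replicate 6 of 4 h (adjusted p 0.0557) or of 24 h (0.0563), and the Mrc1 value against EtOH not without LPS replicate 3 of 4 h (0.0507). For Mrc1 with DMF, limma without the block called neither the 4 h nor the 24 h effect on its own. Groups of 3 were not examined for single outlying libraries.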

How the results depend on the processing

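With 3 libraries a group and Axl below 40 counts in every library, small changes of the low members could not be resolved. Any trimmed reads that lay within a run shared by Fcgr2b and Fcgr3 were not separable here. No called change of a member turned its direction under any alternative that gave a value. In 109 cases an uncalled value changed sign and stayed uncalled. Of 60 calls of members in the 20 comparisons of groups, 49 stood without any single library. Counts of called members moved beyond 1.5 times as follows. The replicate block gave 5 in place of 2 for DMF against LPS at 4 h and at 24 h, 6 in place of 2 for CBD against LPS at 24 h, 4 in place of 0 for MMF against LPS over both times, 9 in place of 4 for DMF against MMF, and 3 in place of 0 for DMSO against EtOH. For MMF against LPS and DMF against MMF at 4 h, and for time in DMSO, EtOH, LPS with DMF and LPS with CBD, the libraries share only a number, since a correlation was under 0.1. At 4 h the block called Fcgr1 and Msr1 with MMF, and Fcgr1, Msr1 and Cd36 between DMF and MMF. For LPS against either vehicle no paired analysis was run, because the groups share no number. All libraries in 1 fit gave 5 for DMF against LPS at 4 h, and DESeq2 gave 1 for MMF against LPS, and the cause was not tested.

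Leaving out each library in turn, the counts ranged from 1 to 2 for LPS against the vehicles at 4 h and 10 to 14 at 24 h, from 2 to 3 and 2 to 5 for DMF against LPS at 4 h and 24 h, 0 to 0 for MMF and for CBD at 4 h, 2 to 5 for CBD at 24 h, 0 to 5 for DMF against MMF, 0 to 0 for DMSO against EtOH, 34 to 38 for time and 13 to 16 for the difference between times. Without LPS replicate 2, the count at 24 h was 5 for DMF and 5 for CBD. Without LPS_DMF replicate 3, it was 0 for DMF against MMF. Over time, Clec7a and Mrc1 in EtOH, Axl with DMF and Cd36 with CBD were each lost without some single library, or, for Axl, fell under the filter. TMM scaling moved no group mean by more than 0.940%.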
